A study of Mus musculus with 6 samples.

Results

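The genes described here are 10 members of the systems by which astrocytes and vessels signal to each other, chosen by symbol from the 45777 genes of the deposited table: the peptide gene Apln and its receptor gene Aplnr, the growth factor genes Vegfa, Vegfb, Vegfc and Pgf, the angiopoietin genes Angpt1 and Angpt2, and the hypoxia-inducible factor genes Hif1a and Epas1. They were picked with the STZ and vehicle values of these same samples already known, so their differences between the groups are given as a description. No test was made of the 10 genes as a set. Where the fits over all genes called any of them, the call is printed but is no independent support. The gene lists used below were also chosen with earlier results of these data known, so counts within them are a description too. All 10 passed the filter of 1 count or more in each sample, which left 22337 genes to test.

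The study asked how high blood glucose changes astrocytes of the mouse brain, and it sequenced the RNA of sorted astrocytes from 3 vehicle and 3 STZ samples. Mice were males of the C57BL/6 background, and the methods give them an Aldh1l1 cre/ERT2 driver and a floxed Rosa26-tdTomato reporter, while the sample labels give the genotype only as WT. Both groups received tamoxifen (75 mg/kg for 5 days), which lets Cre act in cells that transcribe Aldh1l1. The tdTomato label is thus meant for cells that used this promoter at the time of tamoxifen. The sorted samples also carried RNA typical of other cells, as given below. At 8 weeks of age the STZ group was injected once with streptozotocin (150 mg/kg), a toxin of pancreatic beta cells, and the vehicle group with citrate buffer. Mice of the STZ group were taken forward on their blood glucose, and each sample is a pool of tdTomato-positive cells from 3 mice, so each value below is an average over 3 animals and mice within a pool cannot be told apart.

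Apelin, the peptide made from Apln, acts on the receptor APJ (Aplnr), which in vessels is found mainly on endothelial cells. VEGF-A acts on the endothelial receptors encoded by Flt1 and Kdr, VEGF-B and placental growth factor (Pgf) bind the Flt1 receptor, and VEGF-C acts mainly on the Flt4 receptor of lymphatic endothelium. Angiopoietin 1 activates the Tek receptor (Tie2) and steadies vessels, while angiopoietin 2 can oppose it. HIF-1α (Hif1a) and HIF-2α (Epas1) are stabilised when oxygen is low and, with a partner, bind DNA at a short core motif. In the brain, astrocyte end-feet cover the vessels, and astrocytes are a known source of VEGF-A.

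Of the 10 genes, 6 had an entry in the RefSeq promoter table of GRCm38.p6, the assembly behind mm10. The 250 bases before the start site are shown for the 3 ligand genes that were lower in every STZ sample than in every vehicle sample, 5′ to 3′ on the strand of the gene, which is the minus strand for all 3. Capitals mark the hypoxia core (ACGTG or GCGTG, on either strand) and the GC box (GGGCGG, on either strand), and neighbouring matches may run together. For Vegfa the most upstream start was used.
Apln, chrX:48034854-48035103: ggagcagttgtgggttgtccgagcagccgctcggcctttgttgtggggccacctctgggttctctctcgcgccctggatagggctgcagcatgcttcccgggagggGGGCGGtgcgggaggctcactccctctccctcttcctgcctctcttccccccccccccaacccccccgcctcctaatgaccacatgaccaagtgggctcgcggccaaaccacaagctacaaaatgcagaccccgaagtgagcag
Vegfa, chr17:46032378-46032627: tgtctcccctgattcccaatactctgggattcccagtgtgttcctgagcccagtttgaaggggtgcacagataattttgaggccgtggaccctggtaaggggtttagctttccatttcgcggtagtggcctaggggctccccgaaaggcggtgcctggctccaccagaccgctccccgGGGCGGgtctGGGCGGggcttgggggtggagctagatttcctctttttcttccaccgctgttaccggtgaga
Vegfb, chr19:6987652-6987901: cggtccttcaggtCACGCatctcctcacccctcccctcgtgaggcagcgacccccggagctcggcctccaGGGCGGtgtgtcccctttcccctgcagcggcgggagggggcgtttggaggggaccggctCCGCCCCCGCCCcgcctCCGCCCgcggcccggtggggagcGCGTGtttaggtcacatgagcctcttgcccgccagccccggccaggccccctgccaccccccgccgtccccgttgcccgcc
The Apln window had a GC content of 65.2%, that of Vegfa 59.2% and that of Vegfb 76.4%, against a median of 52.4% over all promoters. In these windows, Apln held 1 GC box and 0 hypoxia cores, Vegfa 2 GC boxes and 0 hypoxia cores, and Vegfb 4 GC boxes and 2 hypoxia cores. A window at a further, internal start of Vegfa, which holds exon sequence and is not shown, held 2 hypoxia cores and 1 GC box. The hypoxia core was found in 38.6% and the GC box in 32.7% of the 32851 promoter windows of the same length, so both are common letters. The windows of Vegfc and Pgf held 2 GC boxes each (for Pgf at 1 of its 2 starts), and the window of Hif1a held 0 GC boxes. The hypoxia core was matched 3 times for Hif1a, 1 time for Pgf at the same start, and 0 times for Vegfc, counting overlapping matches on both strands.

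Per transcript length, the 10 genes spanned over 3 orders of magnitude. In mean FPKM over the 6 samples (the authors' values, scaled to transcript length and library size), Vegfa came first at 88.5, followed by Vegfb at 70.8 and Apln at 56.3. These 3 secreted ligands stood at the 96.6th, 95.5th and 94.1st percentile of the tested genes. In vehicle samples alone Apln and Vegfb were level, at 75.9 and 75.8, and in STZ samples they were at 36.7 and 65.9. Hif1a followed at 27.1, then Epas1 at 9.08, Pgf at 8.42, Angpt1 at 3.12, Vegfc at 2.07 and Angpt2 at 0.898. Pgf was below Epas1 in vehicle (6.43 and 8.37) and above it in STZ samples (10.4 and 9.79), within their spread in the latter. Aplnr was last, at 0.0649 FPKM and the 5.74th percentile. Over all 6 samples, the ranges of Vegfa and Vegfb, of Vegfb and Apln, and of Epas1 and Pgf overlapped, and the other neighbours in this order did not.

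**Figure D1:**
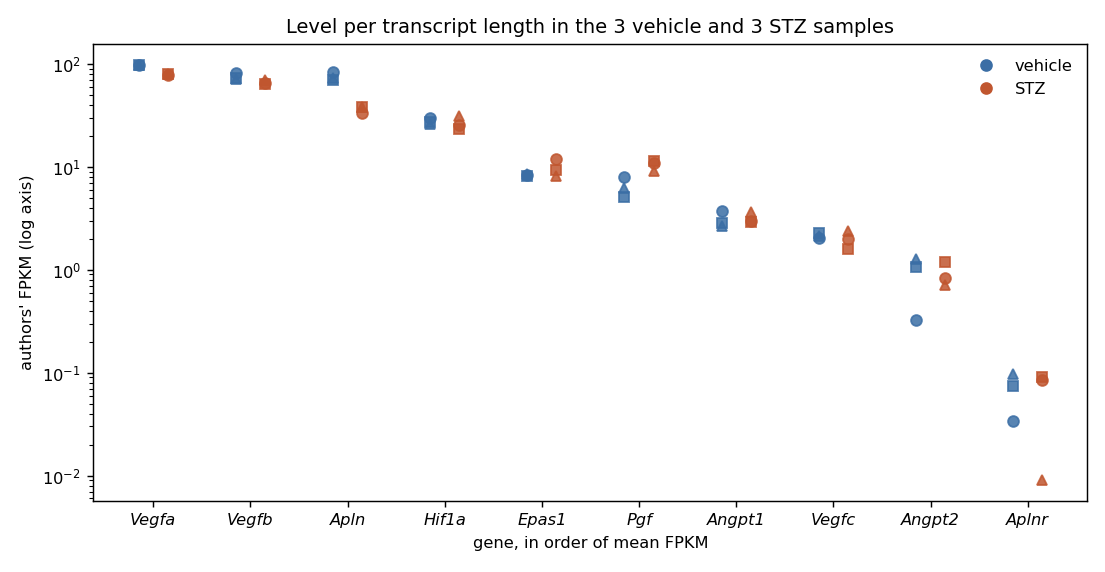
The authors' FPKM of the 10 genes on a log axis, ordered by mean FPKM, with the 3 vehicle samples in blue and the 3 STZ samples in orange (circle, square and triangle for replicates 1, 2 and 3). Vegfa, Vegfb and Apln lie highest and Aplnr lowest, with means of 88.5, 70.8, 56.3 and 0.0649.

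Apln was lower in STZ samples by more than any other of the 10 genes. Its normalized CPM (CPM, counts scaled to library size with TMM factors) was 289, 238 and 252 in vehicle samples 1, 2 and 3. In STZ samples 1, 2 and 3 it was 109, 125 and 128. All 3 STZ samples lay below all 3 vehicle samples, at 46.5% of the vehicle mean (260 ± 26.4 against 121 ± 10.2, mean ± SD, n = 3). The log2 fold change was -1.11 (SE 0.101), and these values rest on 6611 to 15495 reads per sample. In FPKM the level was 75.9 ± 7.46 in vehicle and 36.7 ± 2.76 in STZ samples. The gene lies at chrX:48025146-48034853 on the minus strand (NCBI gene 30878), with no other annotated gene across it. Relative to the mean of 8 astrocyte markers in the same sample, a scaling chosen after the data were seen, the log2 fold change was -0.96. The markers themselves had a median log2 fold change of -0.15, with 2 of the 8 above 0, and this enters the scaled value.

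Among the VEGF family genes, Vegfa and Vegfb lay lower and Pgf higher in every STZ sample. Vegfa, at chr17:46016993-46032377 on the minus strand, had 356, 359 and 356 normalized CPM in the vehicle samples and 276, 279 and 287 in the STZ samples. The groups were apart, and the replicates lay close together (357 ± 2.14 against 280.4 ± 5.57), with a log2 fold change of -0.35 (SE 0.0638). Vegfb, at chr19:6982472-6987651 on the minus strand, had 110, 98.3 and 95.2 in vehicle and 83.1, 82.1 and 89.5 in STZ samples. Here too the groups did not overlap, but the gap between the lowest vehicle and the highest STZ sample was narrow. The log2 fold change of Vegfb was -0.25 (SE 0.0793). Relative to the astrocyte markers, whose own shift enters here too, the log2 fold changes were -0.20 for Vegfa and -0.10 for Vegfb.

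Pgf, which codes for placental growth factor and lies at chr12:85166637-85177785 on the minus strand, went the other way. Its normalized CPM was 14.2, 9.11 and 10.9 in the vehicle samples and 18.3, 19.1 and 15.7 in the STZ samples. Every STZ sample was above every vehicle sample, with means of 11.4 ± 2.58 and 17.7 ± 1.74 and a log2 fold change of 0.63 (SE 0.177). Vegfc, at chr8:54077532-54186454 on the plus strand, had 4.20, 4.64 and 4.36 in vehicle and 3.89, 3.14 and 4.75 in STZ samples. STZ sample 3 lay above all vehicle samples and STZ samples 1 and 2 below them, so the groups of Vegfc overlapped (log2 fold change -0.16, SE 0.208).

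With the 4 ligand genes added up in FPKM, the VEGF family summed to 182 ± 6.79 in vehicle and 157.8 ± 2.504 in STZ samples. Vegfa made up 53.7 ± 2.01% of this sum in vehicle and 50.4 ± 0.554% in STZ samples, and Vegfb 41.6 ± 1.52% and 41.7 ± 1.17%. The share of Pgf was 4.23%, 2.83% and 3.50% in the vehicle samples and 6.92%, 7.26% and 5.65% in the STZ samples. The Pgf share was thus higher in each STZ sample than in any vehicle sample, but remained the smaller part beside Vegfa and Vegfb. The ratio of Vegfa to Apln in FPKM was 1.29 ± 0.127 in vehicle and 2.17 ± 0.155 in STZ samples, and that of Vegfa to Pgf 15.7 ± 3.63 and 7.71 ± 0.978. The ratio of Vegfa to Vegfb moved little beside its spread, from 1.29 ± 0.0931 to 1.21 ± 0.0464.

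**Figure D2:**
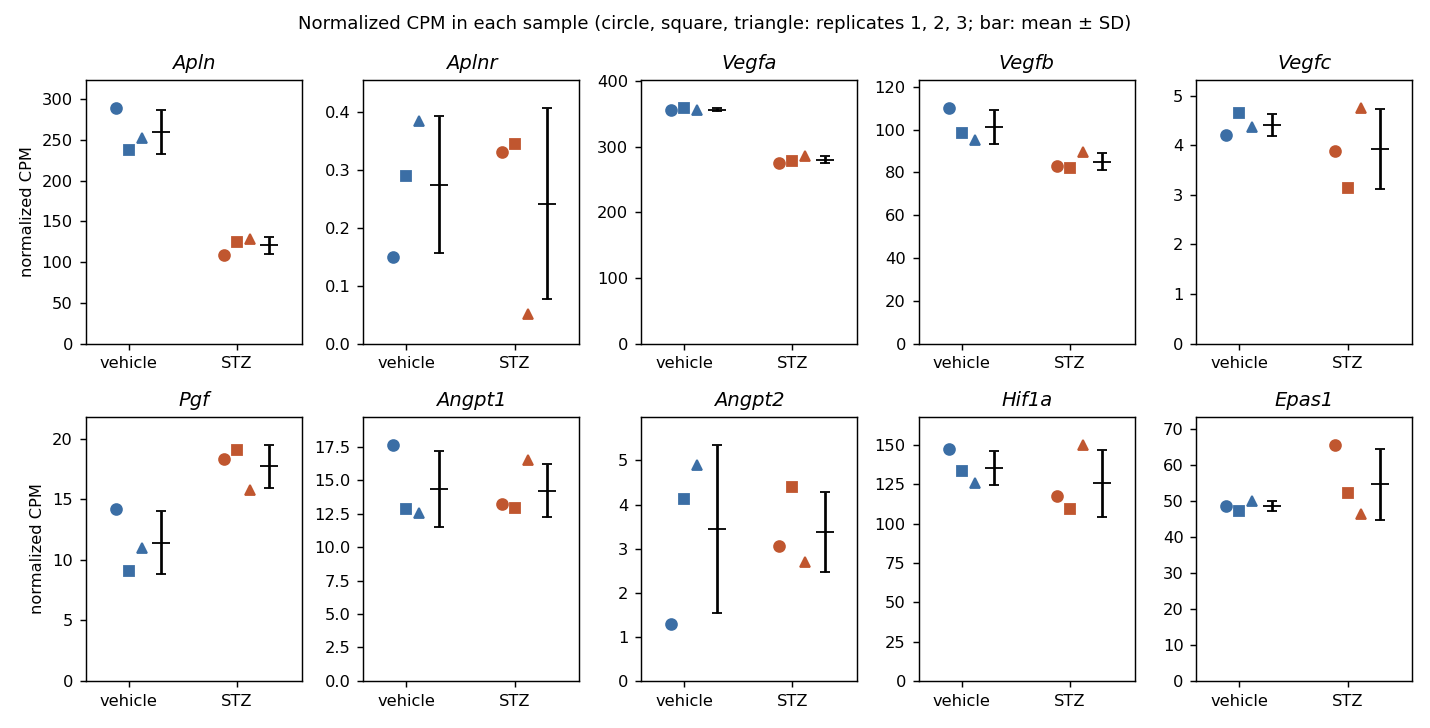
Normalized CPM of each of the 10 genes in the 3 vehicle (blue) and 3 STZ (orange) samples, each panel with its own axis from 0, with bars for the mean ± SD. Apln, Vegfa and Vegfb show groups apart with STZ lower, Pgf shows groups apart with STZ higher, and the other 6 genes overlap.

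The angiopoietin genes showed no separation of the groups. Angpt1 had 17.6, 12.9 and 12.5 normalized CPM in vehicle and 13.2, 13.0 and 16.5 in STZ samples. Its means were 14.3 ± 2.84 and 14.2 ± 1.97, and the log2 fold change was -0.01 (SE 0.172). Angpt2 had 1.29, 4.12 and 4.90 in vehicle and 3.05, 4.398 and 2.69 in STZ samples. Vehicle sample 1 was the lowest of all 6, the groups overlapped, and the log2 fold change of -0.03 had an SE of 0.463. Angpt2 is the least certain of the ligands, since leaving out 1 sample at a time gave log2 fold changes from -0.42 (without vehicle sample 1) to 0.31 (without vehicle sample 3). The ratio of Angpt1 to Angpt2 in FPKM was 11.4 in vehicle sample 1 and between 2.11 and 5.06 in the other 5 samples. Angpt1 (chr15:42424667-42676977, minus strand) overlaps the antisense gene Gm17473, and Angpt2 (chr8:18690263-18741562, minus strand) lies across from Mcph1 on the plus strand. No source used here says that reads were counted by strand, so reads of these overlapping genes may be shared.

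The apelin receptor gene Aplnr (chr2:85136360-85139923, plus strand) was close to the limit of counting. It had 8, 15 and 22 counts in the vehicle samples and 20, 20 and 3 in the STZ samples. The exact Poisson 95% intervals ran from 3.45 to 15.8 for vehicle sample 1 and from 0.619 to 8.77 for STZ sample 3, and they cover counting error only. A difference between the groups was not detectable (log2 fold change -0.18, SE 0.632). STZ sample 3 stood below the interval of the other STZ samples, 12.2 to 30.9, so the samples also differed beyond counting error. Without that sample the log2 fold change of Aplnr was 0.29. Apela, which codes for the second ligand of this receptor, had 0 counts in 3 of the 6 samples and at most 12, and was not tested.

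Neither HIF gene separated the groups in RNA, whereas HIF-1α and HIF-2α are controlled largely at the protein level, which RNA does not show. Hif1a (chr12:73901324-73947554, plus strand) had 147, 134 and 126 normalized CPM in vehicle and 118, 109 and 149.9 in STZ samples. STZ sample 3 was the highest of all 6 and the other STZ samples the lowest, with a log2 fold change of -0.11 (SE 0.126). Epas1 (chr17:86753864-86833410, plus strand) had 48.6, 47.2 and 49.99 in vehicle and 65.4, 52.0 and 46.3 in STZ samples. STZ sample 1 was above the rest and STZ sample 3 was the lowest, so the groups overlapped (log2 fold change 0.17, SE 0.124). Without STZ sample 1 the log2 fold change of Epas1 was 0.02. The ratio of Hif1a to Epas1 in FPKM was 3.31 ± 0.296 in vehicle and 2.81 ± 0.866 in STZ samples. Hif1a overlaps the antisense gene Gm15283, with the same limit on strand. It also overlaps the coding gene Gm49321, and Epas1 overlaps AC096777.1, each on the same strand as the HIF gene. Reads there may be shared even if they were counted by strand.

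Across the whole comparison, 5 genes (0.0224% of those tested, 0.0134% lower and 0.00895% higher in STZ) passed edgeR's quasi-likelihood test with a fold of more than 1.5 and an adjusted p below 0.05, and Apln was 1 of them. DESeq2 called 234 genes (1.05%, with 0.654% higher and 0.394% lower), among them Apln and Pgf. The groups did not overlap for 4 of the 10 genes, 3 lower and 1 higher in STZ, and for 18.5% of all tested genes (9.85% lower and 8.64% higher). Since the 10 genes were chosen on this contrast, nothing is read from these counts. Of the 10 log2 fold changes 8 were below 0 and 2 above, with a median of -0.14, against 0.01 over all tested genes. The call of Apln was made from all 6 samples only: without any 1 of the 6 samples edgeR called none of the 10 genes, although the log2 fold change of Apln stayed between -1.18 (without vehicle sample 2) and -1.03 (without vehicle sample 1). Without any 1 sample the log2 fold change was -0.36 to -0.34 for Vegfa, -0.31 to -0.19 for Vegfb and 0.48 to 0.82 for Pgf.

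The sorted samples carried the astrocyte markers at high level, together with RNA typical of other cells. The 8 astrocyte markers (Aldh1l1, Aqp4, Slc1a2 and others) summed to 5375 to 6258 FPKM in vehicle and 5467 to 6084 in STZ samples, and 3 of the 8 were lower in every STZ sample, as were 9.85% of all tested genes. The 10 choroid plexus markers (Ttr, Folr1, Kl and others) summed to 4400, 12430 and 13146 FPKM in vehicle samples 1, 2 and 3, and to 7062 to 12012 in STZ samples. Of them 0 had a log2 fold change above 0 (median -0.38), against 2 of the 8 astrocyte markers (median -0.15). The 15 endothelial markers (Cldn5, Pecam1, Cdh5 and others) summed to 192 to 374 FPKM in vehicle and 363 to 539 in STZ samples. Microglia markers (Cx3cr1, Itgam, Cd68 and others) summed to 279 to 402 FPKM in vehicle and 283 to 393 in STZ samples. Pericyte and smooth muscle markers (Pdgfrb, Kcnj8, Abcc9 and others) summed to 37.4 to 59.5 and 58.9 to 79.7, neuron markers (Rbfox3, Snap25, Syt1 and others) to 23.3 to 46.1 and 36.7 to 49.5, and fibroblast markers (Col1a1, Col1a2, Dcn and others) to 9.84 to 16.8 and 11.9 to 18.1. Of the 10 pericyte and smooth muscle markers, 9 had a log2 fold change above 0 (median 0.95) and 5 were higher in every STZ sample (8.64% of all tested genes were). EdgeR called 0 of the 10, with 5 at an unadjusted p under 0.05 (11.3% of all tested genes were). DESeq2 called 5 (1.05% of all tested genes), named here after their values were seen: Tagln, Myh11, Higd1b, Acta2 and Rgs5, with log2 fold changes of 2.65, 1.43, 1.32, 1.30 and 1.02. The part of these cells in the differences of Pgf and of the receptor genes was not tested. No marker of these lists was at 0 in any sample.

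Many receptors of these ligands are known from endothelial cells, and 6 receptor genes (Flt1, Kdr, Flt4, Tek, Tie1 and Ptprb) had higher means in STZ samples, as the endothelial markers did, while the co-receptor gene Nrp1 had a lower mean and Nrp2 a nearly equal one. Flt1 and Tie1 are also in the endothelial list, so part of this likeness is built in. Flt1 (VEGF receptor 1) had 8.47, 13.7 and 33.1 normalized CPM in vehicle and 59.6, 46.4 and 34.5 in STZ samples, so vehicle sample 3 and STZ sample 3 were close to each other. Kdr (VEGF receptor 2) had 3.49, 4.24 and 8.20 in vehicle and 12.8, 10.8 and 6.08 in STZ samples, with the groups overlapping. Tek (Tie2) had 3.23, 3.24 and 8.92 in vehicle and 13.6, 9.48 and 10.03 in STZ samples. In each of these genes vehicle sample 3 was the highest vehicle sample. The sum of the 15 endothelial markers was 192, 237 and 374 FPKM in vehicle and 539, 456 and 363 in STZ samples, with vehicle sample 3 again above the other vehicle samples. In samples of bulk RNA, fewer cells of a type and less RNA per cell cannot be told apart.

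The log2 fold change was 1.34 (SE 0.463) for Flt1, 0.89 for Kdr, 1.10 for Tek, 1.41 for Flt4 (VEGF receptor 3), 0.92 for Tie1 and 1.26 for Ptprb, the phosphatase that acts on Tie2. None was called by edgeR, with adjusted p-values of 0.368, 0.445, 0.397, 0.401, 0.427 and 0.349. DESeq2 called 1 receptor gene, Ptprb (adjusted p = 0.0188). Nrp1, a co-receptor of VEGF-A, had 87.4, 80.4 and 88.7 normalized CPM in vehicle and 70.9, 68.7 and 76.4 in STZ samples. Its groups did not overlap, with STZ lower, at a log2 fold change of -0.25 (edgeR adjusted p = 0.324). The related Nrp2 had a log2 fold change of 0.02, and the further ligands Vegfd and Angpt4 0.26 and 0.40. Of 10 tested genes of this receptor list, edgeR called 0, 5 higher and 1 lower passed an unadjusted p under 0.05 (11.3% of all tested genes did, 5.63% higher and 5.65% lower), and the median log2 fold change was 0.91.

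**Figure D3:**
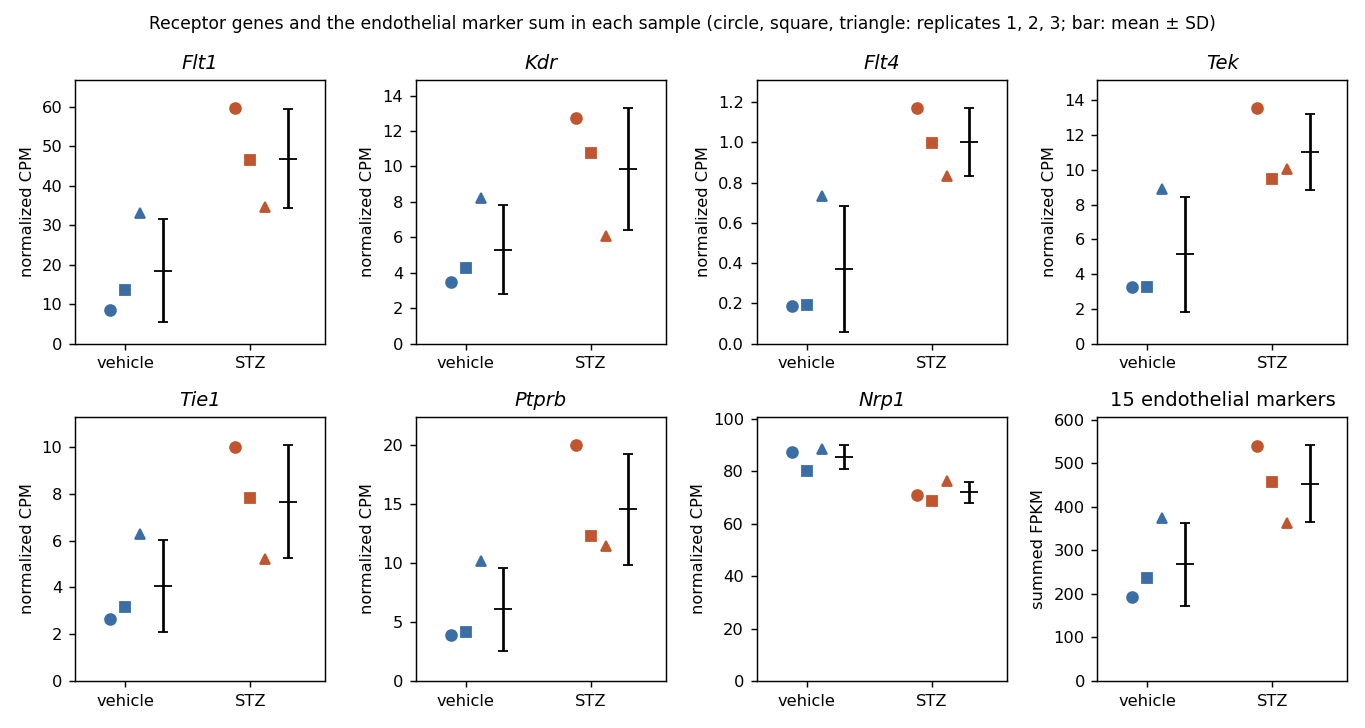
Normalized CPM of 7 receptor genes and, in the last panel, summed FPKM of the 15 endothelial markers in the 3 vehicle (blue) and 3 STZ (orange) samples, with bars for the mean ± SD. In the 7 receptor genes and in the marker sum, vehicle sample 3 is the highest of its group, though in Nrp1 only just (88.7 against 87.4 in vehicle sample 1). Nrp1 is lower in all STZ samples.

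The endothelial list itself had a positive log2 fold change for 15 of 15 genes with a median of 1.14. Its smallest unadjusted p-values belonged to Cdh5, Ly6c1, Egfl7, Flt1 and Abcb1a (log2 fold changes 1.43, 1.57, 1.28, 1.34 and 1.18, edgeR adjusted p = 0.306, 0.329, 0.348, 0.368 and 0.370). EdgeR called 0 of the 15, while 12 passed an unadjusted p under 0.05 (11.3% of all tested genes did). This list and the receptor list were chosen with earlier results of these data known, so nothing is read from their counts. DESeq2 called 2 (Abcb1a and, named after its value was seen, Nostrin). With the endothelial score of each sample as a covariate, the median log2 fold change of the receptor list was -0.02. In the same fit Apln had -0.95, Vegfa -0.33, Pgf 0.75 and Vegfb -0.10, while Angpt1 had 0.37, Angpt2 -0.97, Hif1a 0.13, Epas1 -0.02 and Aplnr -1.50. None of the 10 genes was called in this fit. The endothelial score was 2.58, 3.05 and 4.13 in vehicle samples 1, 2 and 3 and 4.81, 4.52 and 4.10 in STZ samples 1, 2 and 3. It thus ran largely with the groups, so this fit can hardly separate score from group. The part of endothelial cells in these differences was not tested. With a score of the choroid plexus markers instead, Apln was called and had -1.14, Pgf 0.53 and Angpt2 0.43.

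**Figure D4:**
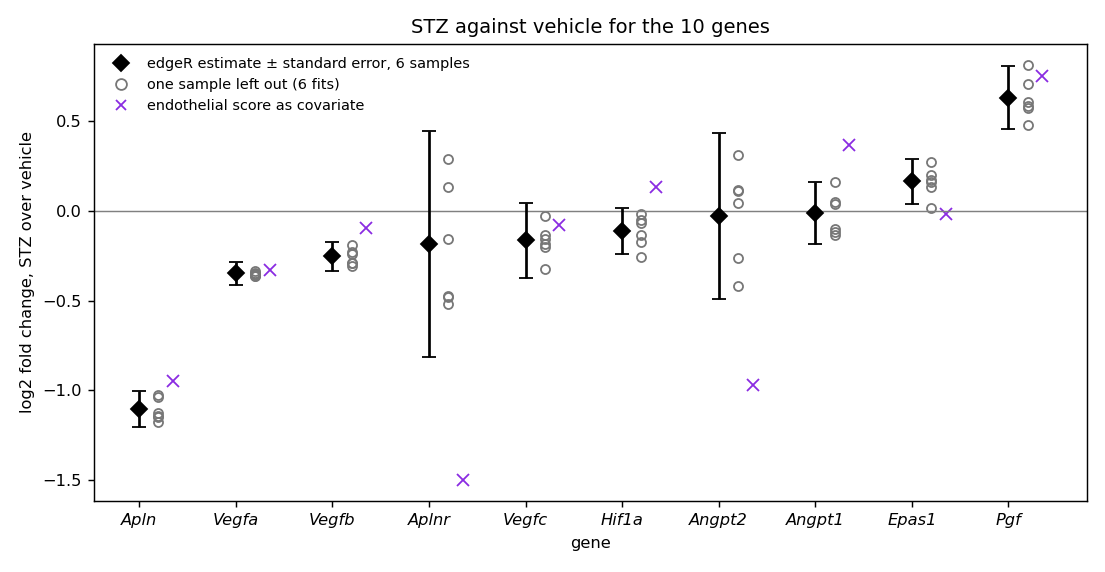
Log2 fold change of STZ over vehicle for the 10 genes, as the edgeR estimate with its standard error (diamonds), the 6 fits with 1 sample left out (open circles) and the fit with the endothelial score as a covariate (crosses). Apln, Vegfa and Vegfb stay below 0 and Pgf above 0 in all of them, while Aplnr, Angpt1, Angpt2, Hif1a and Epas1 fall on both sides of 0.

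Partners and regulators of the HIF proteins gave no call. The list of 13 genes, all tested, had 0 calls by edgeR and by DESeq2 and a median log2 fold change of -0.02. At an unadjusted edgeR p under 0.05, 2 were higher and 1 lower (of all tested genes 5.63% and 5.65% were). The groups did not overlap for 3 higher and 1 lower (of all tested genes, for 8.64% and 9.85%). Cited2, a transcriptional co-regulator induced by HIF that competes with it, had a log2 fold change of 0.38 (edgeR adjusted p = 0.356). Hif1an, the asparagine hydroxylase that restrains HIF activity, had -0.34 (adjusted p = 0.387), with all STZ samples below all vehicle samples. Hif3a had 0.52, the prolyl hydroxylase gene Egln3 0.42 and Eloc, a subunit of the VHL complex, 0.17, with adjusted p-values of 0.494, 0.519 and 0.428. For Cited2, Egln3 and Eloc all STZ samples lay above all vehicle samples.

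Genes known to respond to hypoxia gave no call by edgeR either. Of 29 listed and tested, 3 higher and 1 lower passed an unadjusted p under 0.05 (of all tested genes 5.63% and 5.65% did). The groups did not overlap for 6 higher and 2 lower (over all tested genes, for 8.64% higher and 9.85% lower), and the median log2 fold change was 0.03. Ankrd37 had 2.67, 4.39 and 5.74 normalized CPM in vehicle and 8.89, 6.84 and 8.70 in STZ samples. All its STZ samples lay above the vehicle samples, with a log2 fold change of 0.93 (edgeR adjusted p = 0.328), and it was the only one called by DESeq2 (adjusted p = 0.0343). Slc2a1, the glucose transporter GLUT1 of barrier endothelium and of astrocytes, had 560.3, 529 and 631 in vehicle and 736, 670.5 and 695 in STZ samples. Its groups were also apart, at a log2 fold change of 0.29 (adjusted p = 0.347). Adm, which codes for the vasodilator adrenomedullin, had 0.61, Mxi1 0.17 and the glycolytic regulator Pfkfb4 -0.33, with adjusted p-values of 0.415, 0.452 and 0.349.

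Other signals from astrocytes to vessels were mixed in direction, with 14 of 16 listed genes tested. By edgeR and by DESeq2 0 were called, and the median log2 fold change was -0.02. At an unadjusted edgeR p under 0.05, 2 were higher and 5 lower (of all tested genes 5.63% and 5.65% were). The groups did not overlap for 2 higher and 4 lower (of all tested genes, for 8.64% and 9.85%). Agt, which codes for angiotensinogen, had 2563, 1937 and 2187 normalized CPM in vehicle and 3537, 2880 and 3023 in STZ samples. Its STZ samples all lay above its vehicle samples, at a log2 fold change of 0.50 (edgeR adjusted p = 0.302, DESeq2 adjusted p = 0.0282). Aldh1a1, a retinoic acid synthesis enzyme, had 183, 140.3 and 155 in vehicle and 124, 108 and 116 in STZ samples. These groups were apart in the other direction, at a log2 fold change of -0.45 (adjusted p = 0.279). Sparc had 0.44, Fgf1 -0.31 and the barrier ligand gene Wnt7b -0.24, with adjusted p-values of 0.326, 0.338 and 0.367, and Shh was at 0 counts in every sample.

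**Figure D5:**
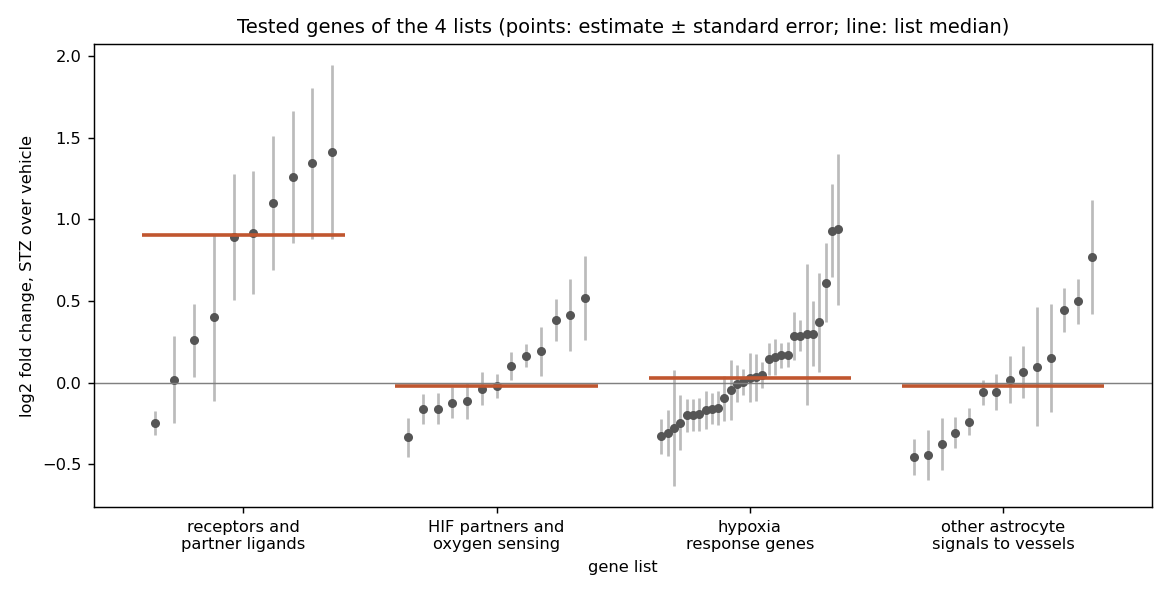
Log2 fold change (STZ over vehicle) with its standard error for each tested gene of 4 lists, each list ordered by value, with a line at its median. The receptor list has its median at 0.91, and the other 3 lists lie around 0, at -0.02, 0.03 and -0.02.

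Within the 10 genes, the profile most like that of Apln over the 6 samples was that of Vegfa (Pearson r = 0.983 in log2 CPM), followed by Vegfb (0.919). The profile of Pgf ran opposite, at -0.774, and that of Epas1 at -0.550. Among 10391 genes with a mean of at least 10 normalized CPM, the 5 profiles most like Apln were those of Dnajc27 (0.997), Tbck (0.994), Tm9sf3 (0.994), Itfg1 (0.992) and Gas1 (0.992). Their log2 fold changes were smaller than that of Apln, at -0.47, -0.36, -0.22, -0.28 and -0.31. These correlations rest on 6 samples that fall into 2 groups, so the step between the groups enters them, and they are given without a test. For the 5 named genes, deviations from the group means correlated with those of Apln at 0.946, 0.849, 0.858, 0.774 and 0.934. The 5 genes were picked for their likeness to Apln, so nothing is read from these values.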

How the data were processed

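RNA of sorted tdTomato-positive cells was measured by SMART-Seq sequencing in 3 vehicle and 3 STZ samples. Per the methods and the submitters' processing notes, the authors trimmed reads with Trimmomatic 0.38, aligned them to mm10 with HISAT2 2.1.0 and quantified genes with StringTie 2.1.3b, while the annotation release is not given in the sources used here. The deposited counts are unnormalized whole numbers per gene, and the FPKM and TPM values were also deposited by the authors. Total counts ran from 52529048 to 58749115, where 3 counts equal 0.0511 to 0.0571 CPM. No 2 samples held identical values, and p-values measure the spread between pools.

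The 10 genes and all lists were chosen with earlier results of these data known. As in the study's methods, genes with a count of at least 1 in every sample were kept. They were tested with edgeR 4.0.16 (TMM, quasi-likelihood, two-sided) and Benjamini-Hochberg adjustment over all genes. Each standard error (SE) was derived as the absolute log2 fold change over the square root of the F statistic of that test. DESeq2 1.42.0, the study's tool, was an alternative. Others were DESeq2 size factors, no filter, filterByExpr, a replicate block, limma 3.58.1 on log2(TPM + 1), endothelial and choroid plexus covariates (means of log2 CPM over the markers) and leaving out each sample. From each pathway list and the endothelial list, genes called and up to 5 with the smallest unadjusted p were named, with every receptor gene and the first 3 genes of each marker list, and the 5 genes most correlated with Apln. One marker list is not reported here. Procedures were tested on simulated data. Start sites and promoters come from RefSeq (GRCm38.p6) and overlapping genes from GENCODE.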

Additional observations from a re-analysis of the deposited data

How the results depend on the processing

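The number of genes called was 5 by edgeR, 7 with no filter and 7 with filterByExpr, 5 with DESeq2's size factors, 234 by DESeq2, 12 with the choroid plexus covariate, and 0 with limma on log2(TPM + 1) and with the endothelial covariate (924 at an unadjusted p under 0.05). Leaving out 1 sample gave 0 to 1, the 1 without vehicle sample 3. Of the 10 genes, 1 was called by edgeR, 2 by DESeq2, 0 by limma, 0 with the endothelial covariate and 0 in each of the 6 fits with 1 sample left out. DESeq2 called 1 gene each of the receptor and hypoxia lists, where edgeR called 0, and the cause was not tested. The replicate block gave 0 called genes and 0 of the 10 (1793 genes at an unadjusted p under 0.05). Deviations from the group means correlated at -0.101, -0.162 and -0.184 for equal numbers, and 0 samples correlated best with their own number. The numbers thus showed no sign of pairing the samples, though with 3 samples a group this check is weak. The endothelial score without Flt1 and Tie1, chosen after seeing the data, gave 0 called genes, 0 of the 10 and -0.95 for Apln. Apln, Vegfa, Vegfb, Vegfc and Pgf kept their sign in all 15 refits, and Apln its rank of 3 by level in the 7 alternatives for the ranking, which all pool both groups (in vehicle alone it is level with Vegfb, 75.9 and 75.8 FPKM). Counting error is wide for Aplnr, the spread between samples is wide for Aplnr and Angpt2, and 3 samples a group limit every test.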
